A study of Mus musculus with 12 samples.

Results

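The genes described here are 10 molecules by which leukocytes hold to and cross the endothelium, chosen by their symbols: Icam1, Icam2, Vcam1, Sele, Selp, Selplg, Pecam1, Cd99l2, Ackr1 and Vwf. All 10 were found among the 50559 genes of the count table. RNA-Seq was performed on whole retinas of WT C57BL6/J mice at day 28, with 4 groups of 3 libraries. IgG retinas came from mice given 30 µg of an isotype control antibody at day 1, and APB5 retinas from mice given 30 µg of the rat monoclonal antibody APB5, which blocks PDGFRB and so the recruitment of pericytes to growing vessels. In the groups IgG+Mino and APB5+Mino the same injections were followed by minocycline, a tetracycline antibiotic, at 45 mg/kg daily from day 5 to day 27. The RNA-Seq was described as n = 3 mice per group, and the labels do not say which mouse or eye gave which library. In a whole retina, fewer cells of a type cannot be told apart from less RNA per cell.

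Leukocytes leave the blood in steps. Selectins on the endothelium (E-selectin from Sele, P-selectin from Selp) catch flowing cells through ligands such as PSGL-1 (Selplg), which is carried mainly by the leukocytes themselves. ICAM-1, ICAM-2 and VCAM-1 are then bound by leukocyte integrins for firm arrest, and PECAM-1 and CD99L2 at the junctions guide passage through the wall. ACKR1 binds and transports chemokines and is a marker of venules, and von Willebrand factor (Vwf) is stored with P-selectin in the Weibel-Palade bodies of endothelial cells. Resting retinal endothelium, which forms the inner blood-retina barrier, is known to carry little of the inducible molecules ICAM-1, VCAM-1, E-selectin and P-selectin.

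Icam1 and Sele are classic cytokine-induced genes, and their start regions are shown to let their sequence be read beside their counts. Both come from RefSeq on GRCm38.p6, run from 250 bases before to 50 bases after the listed start, and lie on the plus strand, Icam1 at chr9:21015690-21015989 and Sele at chr1:164047984-164048283. The capitals mark the 2 motifs found, the gamma-activated site TTCNNNGAA, the form bound by STAT factors, and the TATA box TATAAA.
Icam1: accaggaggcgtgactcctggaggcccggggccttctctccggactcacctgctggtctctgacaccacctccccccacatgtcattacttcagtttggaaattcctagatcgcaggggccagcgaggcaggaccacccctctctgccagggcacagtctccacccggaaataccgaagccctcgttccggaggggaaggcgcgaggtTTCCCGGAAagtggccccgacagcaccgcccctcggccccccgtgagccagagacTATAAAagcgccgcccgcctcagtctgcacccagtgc
Sele: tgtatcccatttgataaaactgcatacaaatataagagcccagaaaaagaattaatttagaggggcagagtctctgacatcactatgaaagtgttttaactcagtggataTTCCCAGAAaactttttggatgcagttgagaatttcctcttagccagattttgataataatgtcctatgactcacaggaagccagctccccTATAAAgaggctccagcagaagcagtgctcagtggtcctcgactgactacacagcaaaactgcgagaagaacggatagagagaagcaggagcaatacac
The gamma-activated site lay 42 to 34 bases before the start of Icam1 and 140 to 132 bases before that of Sele, and reads as a match on both strands. TATAAA lay 14 to 19 bases after the listed start of Icam1 and 49 to 44 bases before that of Sele. Of 32851 promoters of the same length, 8.3% held the gamma-activated site, 13.6% TATAAA and 4.51% the NF-kB consensus, each searched on both strands. The NF-kB consensus was not matched in either window, which says only that these letters are not there. Promoters were listed for 5 of the 10 genes, and those of Selp, Cd99l2 and Ackr1 matched none of the 3 motifs.

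Library totals ranged from 52740545 to 59411044 counts. Levels are given as CPM, counts scaled by library size, and a count of 0 allows a level of up to 0.0448 to 0.0587 CPM in these libraries (3 counts, counting error only). APB5 replicate 3 stood apart. Its 12 microglia and macrophage markers summed to 404 CPM against 73.2 and 75.9 in the other APB5 libraries, and its 10 pericyte and smooth muscle markers to 454 CPM against 125 and 128. Most of the pericyte and smooth muscle sum was Rgs5 (162 CPM), Acta2 (161 CPM) and Tagln (80 CPM). Cspg4, Notch3, Myh11, Des and Cnn1 were also highest there. Kcnj8 went the other way, at 2.06 to 3.03 CPM in APB5 against 3.48 to 3.94 in IgG. Abcc9 overlapped, at 5.89 to 6.46 CPM in APB5 and 6.28 to 7.05 in IgG. The 12 neutrophil and T cell markers of APB5 replicate 3 summed to 6.62 CPM against 0.872 to 1.59 in the remaining 11 libraries. Most of that sum was S100a8, S100a9, Cd4 and Cxcr2 (1.7, 1.43, 1.33 and 0.627 CPM). Cd8a, Mpo and Retnlg reached higher levels in APB5+Mino (up to 0.846, 0.113 and 0.197 CPM), and Ly6g had at most 1 count in APB5. Only 2 of the 12 passed the filter on low counts in APB5 against IgG. In APB5 replicate 3 the rod photoreceptor markers summed to 12300 CPM against 47200 to 72700 in the remaining 11 libraries, and the Muller glia markers to 7640 CPM against 3060 to 4710. Most of that Muller glia sum was Apoe at 4790 CPM, and Vim (638 CPM) and Slc1a3 (229 CPM) were also highest there. Glul was lower there than in any other library (1570 CPM), and Rlbp1 and Aqp4 lay within the range of the others. The 15 endothelial markers were present in all libraries and summed to 403 to 699 CPM. Xist, which is transcribed in female cells, had at least 47210 counts in 5 libraries and at most 38 in 7: the high ones were the 3 IgG libraries and replicate 3 of both APB5 and APB5+Mino, and no IgG+Mino library was among them. In IgG+Mino against IgG, sex and minocycline therefore cannot be told apart. Pdgfrb, which codes for the receptor that APB5 binds, had 732 to 1162 counts in IgG and 850, 892 and 2541 in the APB5 libraries.

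**Figure D1:**
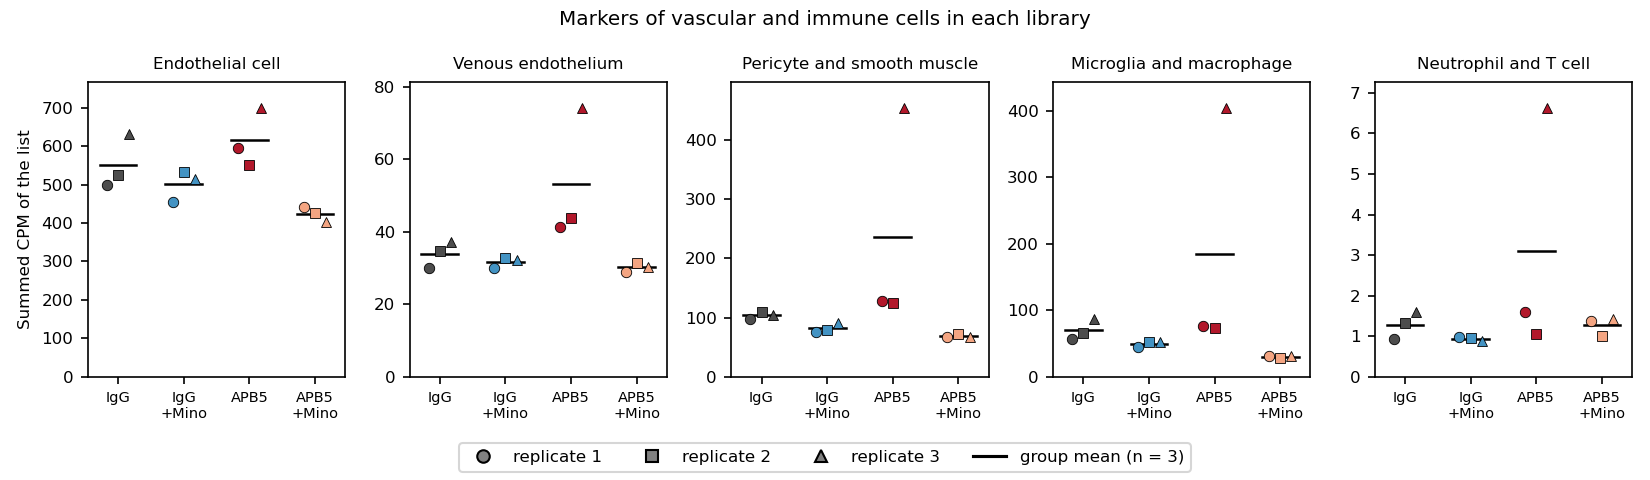
Summed CPM of 5 marker lists (y axis, linear from 0) in each library of the 4 groups (x axis); symbols are replicates and lines are means of 3 libraries. APB5 replicate 3 is the highest library for these 5 lists, at 404 CPM for microglia and macrophage markers, while it was the lowest for rod (12300 CPM) and red blood cell markers (52.6 CPM), which are not plotted, and the APB5+Mino libraries lie below all APB5 libraries for the endothelial list (403 to 442 against 551 to 699 CPM).

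In control retinas the members covered a wide range. Length here joins all GENCODE exons of a gene (7425 bases for Icam2, 16729 for Vwf), while reads were counted on the NCBI annotation. Such a length can exceed that of a single transcript, so the order given depends on the lengths used. Per kilobase of exon, Ackr1 was highest in IgG, at 59.1 ± 8.21 CPM per kilobase (SD, n = 3), followed by Cd99l2 at 3.87 ± 0.196. Part of the Ackr1 exons overlaps Cadm3 on the same strand, as described below. Cadm3 was at 61.9 CPM per kilobase in IgG, and its share of the Ackr1 level was not tested. Vcam1 at 1.41 ± 0.322 and Pecam1 at 1.37 ± 0.166 overlapped, as did Pecam1 with Selplg at 0.851 ± 0.396 and Selplg with Vwf at 0.505 ± 0.16. Icam1 at 0.229 ± 0.0486 and Icam2 at 0.157 ± 0.073 CPM per kilobase overlapped and lay below Vwf. Sele was near the limit of counting at 0.0167 ± 0.0173 CPM per kilobase, and Selp had no count in any IgG library. Vcam1, an inducible molecule, and the junctional Pecam1 thus did not differ beyond their spread per length.

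**Figure D2:**
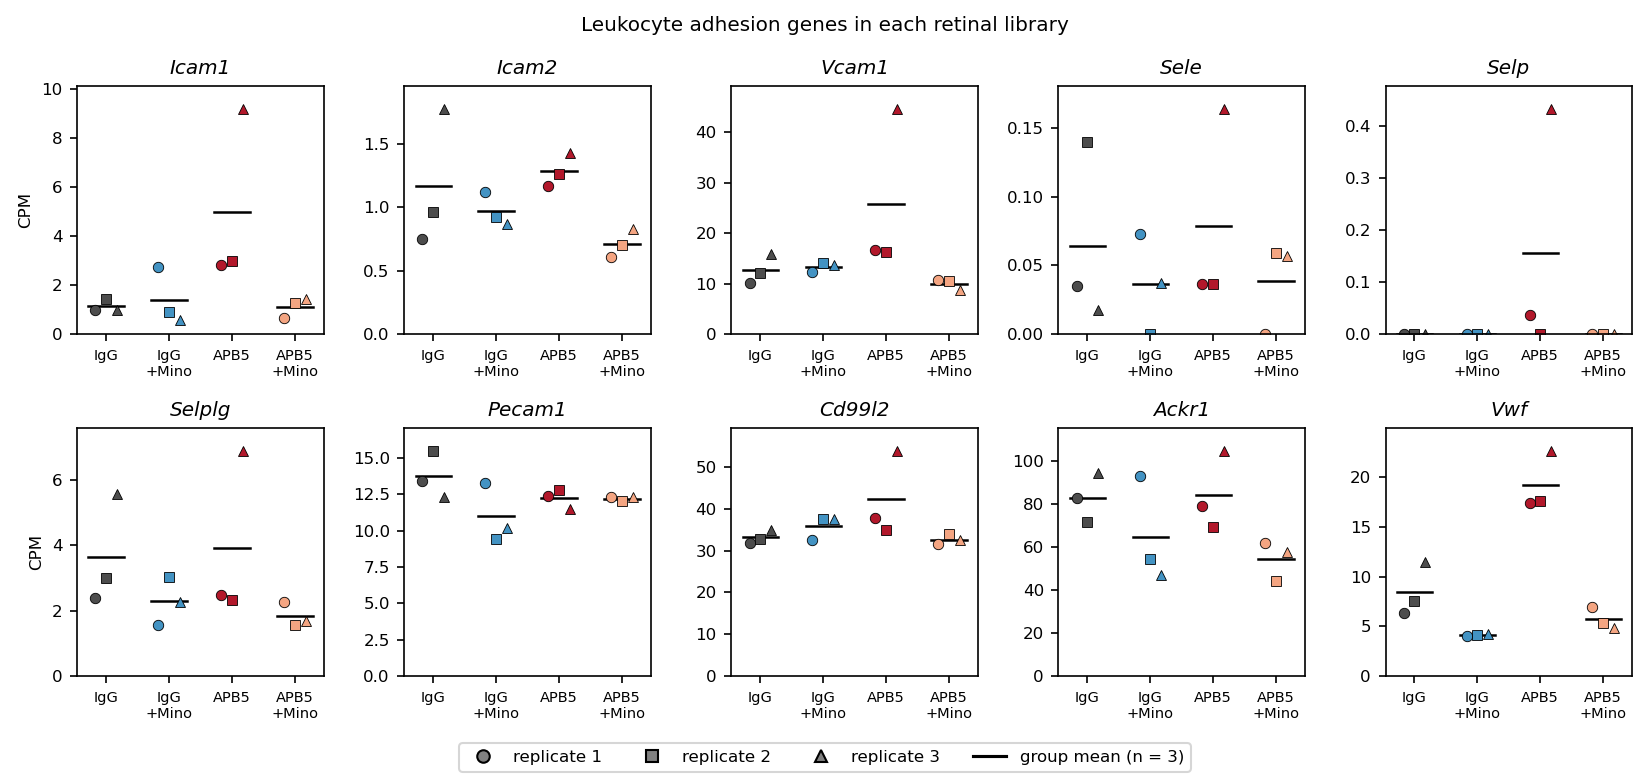
CPM of the 10 genes (y axis, linear from 0, own scale per panel) in each library of the 4 groups (x axis); symbols are replicates and lines are means of 3 libraries. Vwf lies at 17.4 to 22.7 CPM in APB5 and at 4 to 11.5 CPM in all other libraries, while for Icam1, Vcam1 and Selp APB5 replicate 3 lies far above the rest.

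The comparison of APB5 with IgG asks what early loss of PDGFRB signalling does to these genes at day 28. Icam1, Vcam1 and Vwf were the only members whose APB5 libraries all lay above all IgG libraries, and none of the 8 members that could be tested passed the threshold. A gene counted as called where its adjusted P did not exceed 0.05 and its log2 fold change, or log2 change, reached 1 in either direction. By edgeR's quasi-likelihood test 0 of 8 were called, against 0% of all genes tested. At an unadjusted P under 0.05 there were 3 members, against 7.23% of all genes. DESeq2 called 2 members (Icam1 and Vwf) and limma's voom 1 (Vwf). Over all genes DESeq2 called 109 higher and 9 lower of 33260, and voom 23 and 4 of 20350. A fit of all 12 libraries with Xist as a covariate called 3 (Icam1, Vcam1 and Vwf, at adjusted P of 0.0151, 0.0254 and 0.019), and the fit of all 12 without the covariate 0 (0.211, 0.24 and 0.114). Over all 21228 genes the fit with the covariate called 1060 higher and 124 lower, and the fit without it 7 and 0. Only APB5 and APB5+Mino held both high and low Xist, each with replicate 3 alone high, so that library and sex cannot be told apart. Libraries did not overlap, with APB5 higher, for 7.79% of all genes.

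Among the integrin ligands, Icam1 (chr9:20926672-20940113 on GRCm39, plus strand) had 57, 81 and 58 counts in the IgG libraries and 155, 162 and 616 in the APB5 libraries. All 3 APB5 libraries were above IgG, with replicate 3 far above the other two. The levels were 1.14 ± 0.242 CPM in IgG and 4.99 ± 3.65 CPM in APB5 (SD, n = 3 each), a log2 change of 2.15 (SE 0.52, adjusted P = 0.664). Without APB5 replicate 3 the log2 change was 1.34, and the adjusted P 0.284. In that fit sex and antibody cannot be told apart, since no APB5 library left is high in Xist and every IgG library is.

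Vcam1 (chr3:115903598-115923355, minus strand), which binds the integrin VLA-4, had 581, 689 and 918 counts in IgG and 916, 890 and 2992 in APB5. In CPM the groups were separate but close, at 10.2 to 15.9 in IgG and 16.2, 16.6 and 44.7 in APB5. The log2 change was 1.05 (SE 0.42, adjusted P = 0.664) and fell to 0.37 without APB5 replicate 3. The size of the Vcam1 difference therefore rested on that library. Icam2 (chr11:106263312-106278943, minus strand), the constitutive ICAM of endothelium, had 43, 55 and 103 counts in IgG and 65, 69 and 96 in APB5, and the groups overlapped. Its log2 change was 0.16 (SE 0.37, adjusted P = 0.914). In the annotation 24.5% of its exon bases are shared with Prr29 on the opposite strand, and whether the counting used strand is not stated, so reads of the 2 genes may be mixed.

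Vwf (chr6:125523737-125663642, plus strand) had 362, 433 and 663 counts in IgG and 964, 965 and 1517 in APB5, and the means were 8.45 ± 2.67 and 19.2 ± 2.97 CPM (SD, n = 3 each). Its log2 change was 1.2 (SE 0.25, adjusted P = 0.664), rank 31 of 20350 genes by P, and stayed between 1.03 and 1.47 with each library left out in turn. Without APB5 replicate 3 it was 1.05. Vwf is also made by megakaryocytes, and the 6 platelet markers summed to 23.3 to 34.4 CPM in IgG and 24.8 to 46.9 CPM in APB5. Most of that sum was Gp1bb, at means of 26.7 CPM in IgG and 30.5 CPM in APB5. Itga2b was next at 1.85 and 2.66 CPM, then Pf4 at 0.203 and 0.455 CPM. All 7 venous markers had a log2 change above 0 (median 0.91, and 0.52 without APB5 replicate 3), as did 12 of 15 endothelial markers (median 0.37, and 9 of 15 with a median of 0.08 without it), and edgeR called 0 of either list, with 5 venous and 2 endothelial markers at an unadjusted P under 0.05. DESeq2 called 1 venous marker and voom 0. The part of platelets and of vessel markers in the result was not tested.

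The selectins were near the limit of counting in most libraries. Sele (chr1:163867401-163886055, plus strand) had 2, 8 and 1 counts in IgG and 2, 2 and 11 in APB5. Selp (chr1:163942833-163977595, plus strand) had 0 counts in all IgG, IgG+Mino and APB5+Mino libraries and 2, 0 and 29 in APB5. A Selp signal above the limit of 3 counts was seen in APB5 replicate 3 and in no other library. The sum of neutrophil and T cell markers was higher there too, most of it S100a8, S100a9, Cd4 and Cxcr2. Madcam1, another vascular addressin, named after its values were seen, had 45 counts in that library and at most 5 in each of the others. Neither selectin passed the filter on low counts in any comparison. In APB5 against IgG without that filter, edgeR gave Selp an unadjusted P of 0.0185 (adjusted P = 0.673) and Sele one of 0.745, and a difference in Sele was not detectable at this depth.

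Selplg (chr5:113956597-113970705, minus strand) had 136, 170 and 322 counts in IgG and 138, 127 and 461 in APB5. The groups overlapped, and the sign of the log2 change turned on 1 library: 0.13 (SE 0.52, adjusted P = 0.954) with all libraries and -0.59 without APB5 replicate 3. As a share of the summed microglia and macrophage markers, Selplg was 4.15, 4.54 and 6.39% in IgG and 3.29, 3.17 and 1.71% in APB5. The highest Selplg count and the highest microglia sum were thus in the same library.

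Among the molecules of passage, Pecam1 (chr11:106543689-106641454, minus strand), the CD31 of vessel staining, was level. It had 766, 887 and 710 counts in IgG and 686, 701 and 771 in APB5, with a log2 change of -0.16 (SE 0.15, adjusted P = 0.791). Cd99l2 (chrX:70452401-70536461, minus strand) had 1816, 1866 and 2027 counts in IgG and 2093, 1911 and 3610 in APB5, which overlapped in CPM. Its log2 change was 0.36 (SE 0.19, adjusted P = 0.672). Cd99l2 is X-linked, and 16.4% of its exon bases are shared with Mtmr1 on the opposite strand.

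Ackr1 (chr1:173159453-173161317, minus strand), the venular chemokine carrier, had 4751, 4084 and 5474 counts in IgG and 4370, 3791 and 7031 in APB5, with a log2 change of 0.04 (SE 0.19, adjusted P = 0.962). Its sign also turned without APB5 replicate 3, to -0.16. These counts need care, because the 3' end of Cadm3, a neuronal adhesion gene on the same strand, overlaps the first exon of Ackr1. The shared 361 exon bases are 25.7% of the Ackr1 exons, and strand cannot separate them. Cadm3 had 25651 to 36699 counts per library, and Ackr1 counts were 6.87 to 21.3% of them. The share of Ackr1 counts that came from Cadm3 transcripts was not tested.

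**Figure D3:**
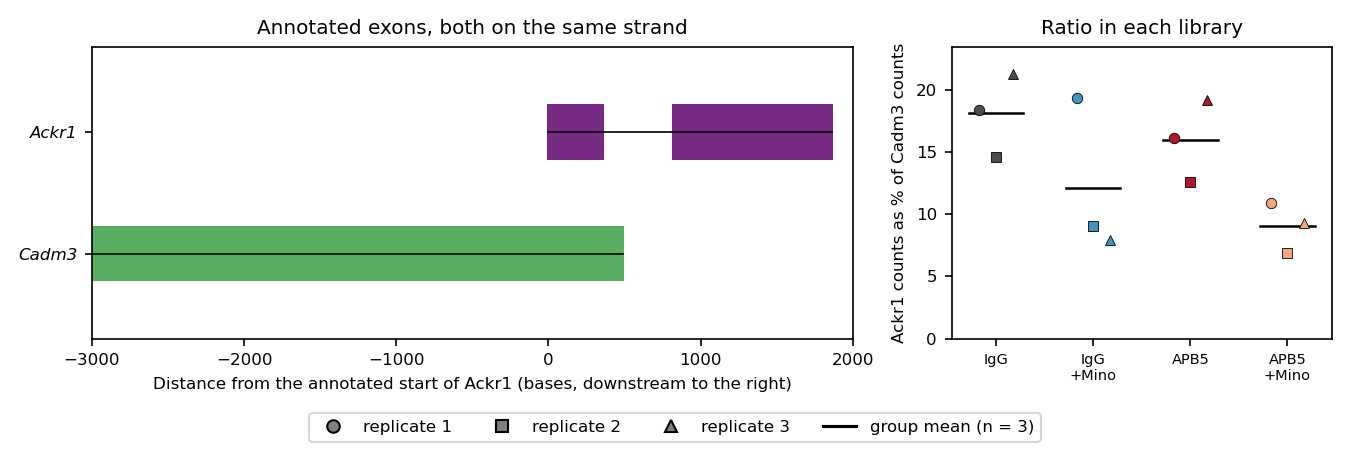
Left, annotated exons of Ackr1 and the last exon of Cadm3 by distance from the Ackr1 start in bases. Right, Ackr1 counts as % of Cadm3 counts (y axis, linear from 0) per library, with lines at group means (n = 3). Cadm3 covers all 361 bases of the first Ackr1 exon, and the ratio was 14.6 to 21.3% in IgG and 6.87 to 10.9% in APB5+Mino.

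The comparison of APB5+Mino with APB5 asks what minocycline does in retinas exposed to the antibody. It shares the APB5 libraries with the comparison above, so that a high APB5 library moves both. Vwf fell and was the only member called, but not in a fit that took the replicate numbers as pairs. The libraries of 7 members lay lower in APB5+Mino without overlap. Called genes were 1.66% of all genes tested and genes lower without overlap 22.8%. The median log2 change of the 8 members tested was -0.99, against -0.021 for all genes, and -0.58 without APB5 replicate 3. At an unadjusted P under 0.05 there were 6 members, against 35.9% of all genes. DESeq2 called 3 members (Icam1, Vcam1 and Vwf) and voom 2 (Icam1 and Vwf). Over all genes DESeq2 called 547 higher and 1073 lower of 33206, and voom 688 and 745 of 20281.

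Vwf had 389, 273 and 256 counts in APB5+Mino against the 964, 965 and 1517 in APB5, and every APB5+Mino library lay far below every APB5 library. The level was 5.71 ± 1.12 CPM (SD, n = 3), a fitted fold of 0.294 against APB5, with a log2 change of -1.77 (SE 0.2, adjusted P = 0.043 by edgeR's quasi-likelihood test). The call was near the threshold. Fitted with a replicate block, the log2 change was again -1.77 and the adjusted P 0.0641, and with library size only as scaling the adjusted P was 0.0502. Without APB5 replicate 1 the adjusted P was 0.105, and without APB5+Mino replicates 1, 2 and 3 it was 0.117, 0.214 and 0.205, while the log2 change stayed between -1.93 and -1.62. Without APB5 replicate 3 it was -1.62 (adjusted P = 0.000823), so the fall of Vwf did not rest on that library.

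Icam1 had 36, 64 and 76 counts in APB5+Mino, all below the APB5 libraries, and a log2 change of -2.19 (SE 0.57, adjusted P = 0.0581). Without APB5 replicate 3 the log2 change was -1.38 with an adjusted P of 0.0129, and DESeq2 gave an adjusted P of 0.000809. Vcam1 had 598, 534 and 469 counts, again all below APB5, with a log2 change of -1.39 (SE 0.41, adjusted P = 0.071). Without APB5 replicate 3 that of Vcam1 was -0.72 (adjusted P = 0.00476), under the fold required for a call. Icam2 had 34, 36 and 44 counts and a log2 change of -0.87 (SE 0.25, adjusted P = 0.0669).

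The other members were smaller or less even. Selplg, at 127, 79 and 89 counts, had a log2 change of -1.11 (SE 0.47, adjusted P = 0.139), and Ackr1, at 3466, 2257 and 3076 counts, one of -0.64 (SE 0.2, adjusted P = 0.0768). Cd99l2 had 1761, 1732 and 1728 counts, in a narrow range below APB5, and a log2 change of -0.39 (adjusted P = 0.165). Without APB5 replicate 3 the log2 changes were -0.4 for Selplg, -0.16 for Cd99l2 and -0.44 for Ackr1. Pecam1 was the exception, with 687, 611 and 652 counts, overlapping groups and a log2 change of -0.02 (SE 0.11, adjusted P = 0.899). Sele had 0, 3 and 3 counts.

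**Figure D4:**
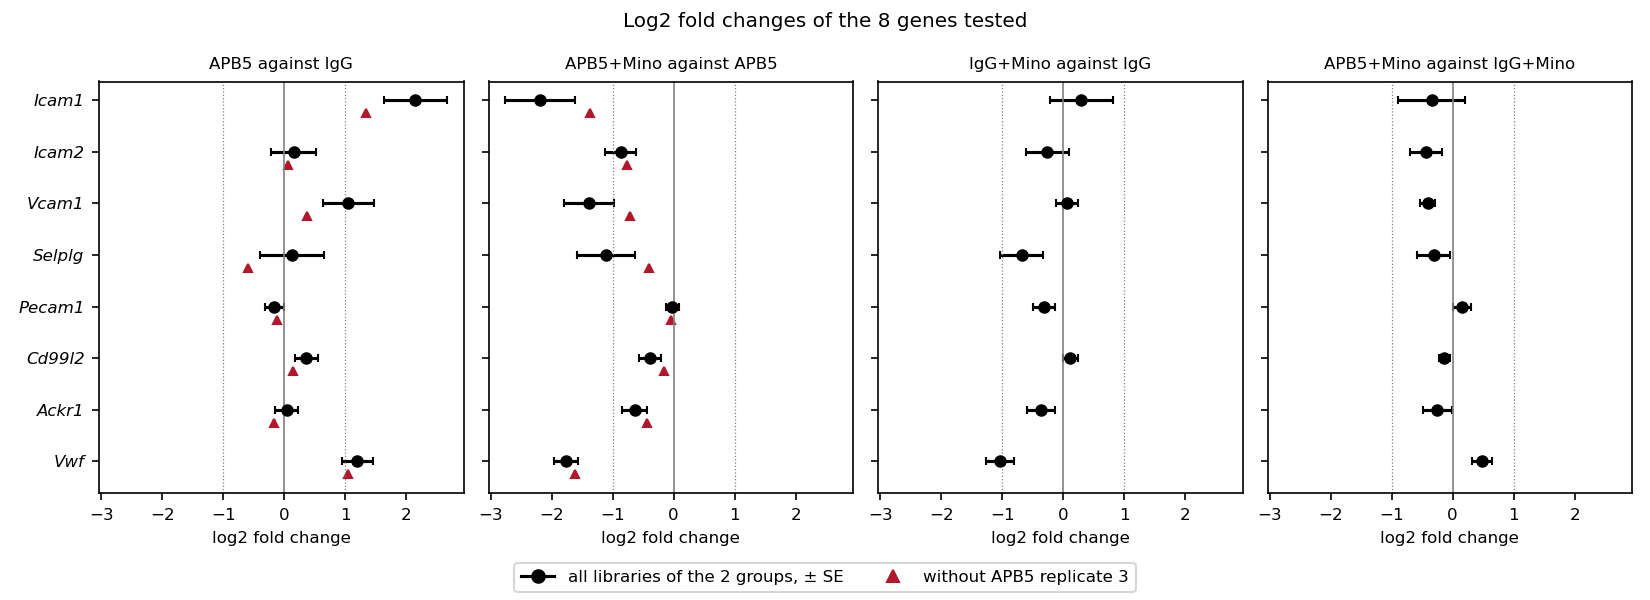
Log2 fold change (x axis) of the 8 genes tested (y axis) in 4 comparisons; circles with bars are estimates ± SE from the libraries of both groups, triangles the estimates without APB5 replicate 3, and dotted lines the fold required for a call. Vwf lies at 1.2 and -1.77 in the comparisons with APB5, and at 1.05 and -1.62 without that library, while Vcam1 moves from 1.05 to 0.37.

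Endothelial markers moved with these values. Of the 15 endothelial markers, 2 were called lower in APB5+Mino against APB5, Tie1 and Cldn5 (log2 changes of -1.51 and -1.68), and the list's median log2 change was -0.76, or -0.6 with 3 called without APB5 replicate 3. In the venous list Slc38a5 was called (-1.92), in the pericyte list Rgs5 (-1.36), and in the microglia list Cx3cr1 (-3.98). With the replicate block 0 of 20281 genes were called by edgeR in this comparison (smallest adjusted P of 0.0641, 7125 genes at an unadjusted P under 0.05), so each of these calls was lost. To set the members beside the endothelial signal, each was divided by the summed CPM of the endothelial list. The number of members without overlap in the lower direction then went from 7 to 3 (Icam1, Vcam1 and Vwf), and Pecam1 turned higher without overlap. The endothelial sum was itself lower in APB5+Mino without overlap (403 to 442 against 551 to 699 CPM), so dividing by it raises every gene there relative to APB5. Pecam1 was level in CPM, at a mean of 12.2 in both groups. The share of all genes without overlap was not computed for this ratio. Slc2a1, Kdr and Flt1 made up most of the endothelial sum, at means of 264, 91.7 and 90.2 CPM in IgG. From APB5 to APB5+Mino the mean of Slc2a1 went from 270 to 187 CPM. That of Cldn5 went from 20.6 to 6.48 and that of Tie1 from 8.33 to 2.96. The result therefore depends on this weighting, and another was not tested. Vwf was 3.12 ± 0.173% of the endothelial sum in APB5 and 1.34 ± 0.205% in APB5+Mino, against 1.51 ± 0.276% in IgG (SD, n = 3 each). Icam1 was 0.47, 0.536 and 1.32% in the APB5 libraries and 0.146, 0.293 and 0.354% in APB5+Mino. Icam2 overlapped, at 0.197 to 0.228% and 0.138 to 0.205%.

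**Figure D5:**
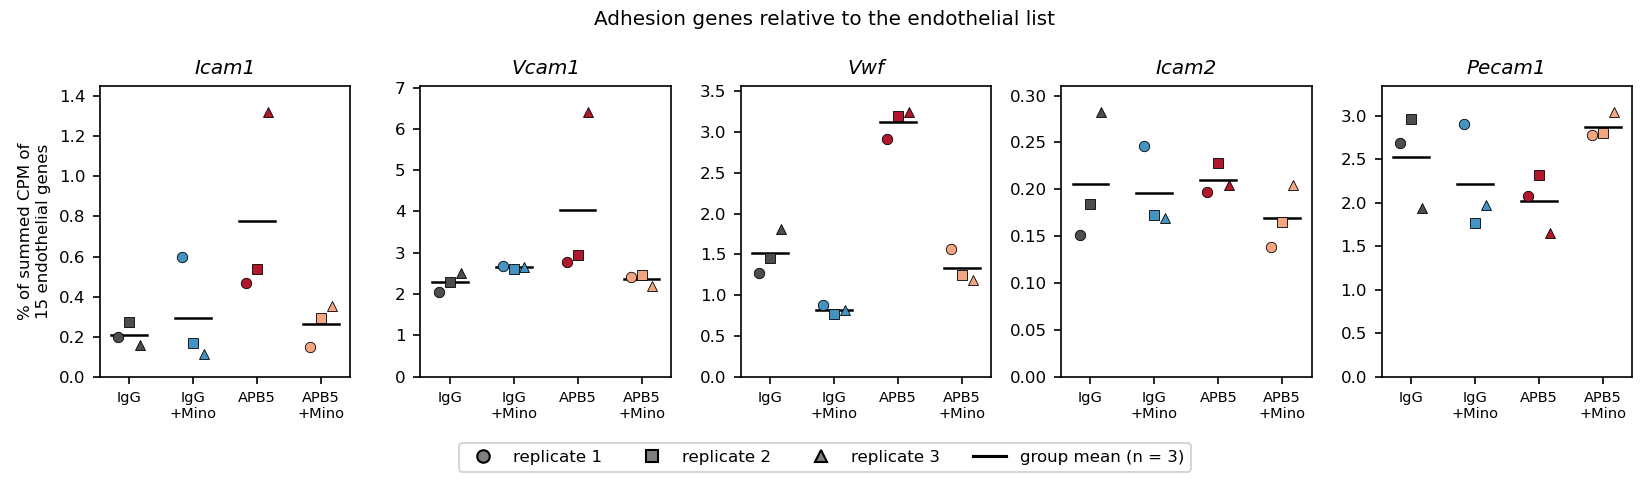
CPM of 5 genes as % of the summed CPM of 15 endothelial markers (y axis, linear from 0) in each library of the 4 groups (x axis); symbols are replicates and lines are means of 3 libraries. Icam1, Vcam1 and Vwf stay higher in APB5 than in APB5+Mino without overlap, Icam2 overlaps, and Pecam1 is higher in APB5+Mino (2.78 to 3.04%) than in APB5 (1.65 to 2.32%). In CPM Pecam1 was level (mean of 12.2 in both groups), while the endothelial sum was lower in APB5+Mino.

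The comparison of IgG+Mino with IgG shows minocycline without the antibody, with sex confounded as given above. Vwf was the only member without overlap, against 14.4% of all genes, and 0 of 8 members were called by edgeR against 0.0298% of genes. Vwf had 221, 232 and 226 counts in IgG+Mino, a narrow range below IgG, with a level of 4.1 ± 0.097 CPM (SD, n = 3) and a log2 change of -1.04 (SE 0.23, adjusted P = 0.585). DESeq2 called Vwf (adjusted P = 0.00926), voom called no member, and 1 member had an unadjusted P under 0.05, against 8.37% of genes. Over all genes DESeq2 called 13 higher and 10 lower of 32676, and voom 64 and 60 of 20143. Icam1 had 151, 50 and 31 counts in IgG+Mino, and its log2 change of 0.3 turned to -0.65 without IgG+Mino replicate 1. Ackr1 was also highest in that library, at 5138 counts against 3067 and 2530.

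In APB5+Mino against IgG+Mino, which shares libraries with both minocycline comparisons, 0 of 8 members were called by edgeR, DESeq2 or voom, against 1.24% of all genes by edgeR. Over all genes DESeq2 called 193 higher and 76 lower of 32560, and voom 380 and 208 of 20049. Libraries did not overlap for 3 members, against 35.2% of all genes, and 2 had an unadjusted P under 0.05, against 29.3% of all genes. Vwf was higher in APB5+Mino, with a log2 change of 0.48 (SE 0.17, adjusted P = 0.0981). Vcam1 and Icam2 were lower, at -0.41 (SE 0.12, adjusted P = 0.0677) and -0.44 (SE 0.26, adjusted P = 0.279). Over the 4 groups Vwf thus ran from APB5 through IgG and APB5+Mino to IgG+Mino, and only IgG and APB5+Mino overlapped.

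Whether the antibody effect differed with minocycline was tested as an interaction in all 12 libraries. It contains the difference between IgG+Mino and IgG, where sex and minocycline cannot be told apart, so sex is not separated from the interaction either. By edgeR 0 of 8 members were called, against 0.0141% of all genes, and 4 had an unadjusted P under 0.05, against 17.1% of all genes. The log2 differences of the antibody effect were -2.48 for Icam1 (SE 0.85, adjusted P = 0.198), -1.44 for Vcam1 (SE 0.47, adjusted P = 0.192) and -0.71 for Vwf (SE 0.31, adjusted P = 0.275). DESeq2 called Icam1 and voom Vcam1. Over all genes DESeq2 called 154 higher and 232 lower of 35088, and voom 571 and 475 of 21228.

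The other genes of adhesion and passage were taken from a list of 58 in 6 groups. In APB5 against IgG, 50 could be tested and 0 were called by edgeR, and 15 had an unadjusted P under 0.05, all higher, against 7.23% of all genes. DESeq2 called 3 higher, against 109 of 33260 genes, and voom 1 higher, against 23 of 20350 genes. The median log2 change of the 50 was 0.61, against -0.002 for all genes, and 0.18 without APB5 replicate 3, a setting added after the data were seen. The smallest P belonged to Glycam1, a sialomucin that carries selectin ligands, Mcam, an endothelial junction molecule, and Nfkb2, a subunit of NF-kB. Glycam1 had 13, 5 and 28 counts in IgG and 264, 262 and 428 in APB5 (adjusted P = 0.322), with no overlap. Mcam and Nfkb2 had log2 changes of 0.86 and 1.72 (adjusted P = 0.664 for both). Of the 12 inducing cytokines, receptors and NF-kB genes, 8 were higher in APB5 without overlap, against 7.79% of all genes. The median log2 change of the 9 tested was 1.24, and 0.32 without APB5 replicate 3. The summed CPM of the 12 overlapped, at 276 to 404 in IgG and 313 to 350 in APB5. Most of that sum was Tnfaip3, at 208 ± 68.2 CPM in IgG and 135 ± 84.8 CPM in APB5 (SD, n = 3 each). The other 8 genes tested had a log2 change above 0.

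In APB5+Mino against APB5, 2 of 49 genes of this list were called by edgeR, both lower: Glycam1, with 2, 2 and 1 counts in APB5+Mino (adjusted P = 0.00316), and Cd34, a sialomucin of endothelium, with a log2 change of -1.33 (adjusted P = 0.0476). By edgeR called genes were 1.66% of all genes. DESeq2 called 14 of the list lower, against 1073 of 33206 genes. Voom called 7 lower and 1 higher, against 745 and 688 of 20281 genes. Both edgeR calls were lost with the replicate block. Their list's median was -0.92, and -0.3 without APB5 replicate 3. Of the 10 leukocyte integrins and ligands, 6 were lower without overlap (Itgb2, Itgam, Itgal, Itgax, Itgb1 and Cd44), against 22.8% of all genes. Of the 7 tested, edgeR called 0, with 5 at an unadjusted P under 0.05, and DESeq2 and voom called 2 each, both lower. Itga4, the chain of VLA-4 that binds VCAM-1, overlapped, at 9.42 ± 1.43 CPM in APB5 and 10.2 ± 1.38 in APB5+Mino (SD, n = 3 each). In the Weibel-Palade group, which holds Vwf's storage partners, edgeR called 0 of 5 genes, with 3 at an unadjusted P under 0.05, DESeq2 called 2 lower and voom 0. In libraries 3 of the 5 were lower without overlap and Myrip was higher. In IgG+Mino against IgG and in APB5+Mino against IgG+Mino 0 of 49 and 0 of 48 list genes were called by edgeR, with 6 and 12 at an unadjusted P under 0.05, against 8.37 and 29.3% of all genes. DESeq2 called none in either comparison, and voom 0 and 1. The smallest P belonged to Cd34 (-0.71), F11r (-0.5) and Jam2 (0.31) in the first (log2 changes, adjusted P = 0.585 each) and to Mcam (0.75), Cd99 (-0.59) and St3gal4 (-0.38) in the second, at adjusted P of 0.0317, 0.0386 and 0.0502 and under the fold required for a call. Of the marker lists, the venous Lrg1 was called higher in APB5+Mino than in IgG+Mino (log2 change of 2.64), and the microglial Cx3cr1 and Tyrobp lower (-2.33 and -1.03). In the interaction 1 of 50 adhesion genes was called by edgeR, Glycam1.

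The genes most like each member were those with the smallest root mean square difference of centred log2 CPM over 12 libraries, among 15811 genes. For Vcam1 they were Niban2 (0.091), Cd82 (0.119) and Clu (0.123), against a spread of Vcam1 itself of 0.577. For Vwf they were Entpd1 (0.341), 2900057B20Rik (0.363) and Igfbp3 (0.386), against a spread of 0.857, and for Icam1 Tgm2 (0.463), Mt1 (0.472) and Gm41608 (0.5), against 1.062. Vcam1 thus had close neighbours, and Icam1 and Vwf had none as near. Lcat (0.116), Kctd14 (0.267), Eif5b (0.087), Arf4 (0.071) and Gm7380 (0.117) were nearest to Icam2, Selplg, Pecam1, Cd99l2 and Ackr1. The libraries share depth and composition, APB5 replicate 3 included, and the likeness is a description.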

How the data were processed

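The deposited gene table holds raw counts of reads per gene, which the authors made from stranded poly-A single-end libraries with the DRAGEN RNA pipeline on mm39 with its NCBI annotation. Its version and strand setting are not given in the sources used here. It has 3 repeated columns, identical to those they repeat, which were not used. Deposited result tables of the authors' own comparisons (fold changes, P values) were not used.

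CPM were computed here with edgeR 4.0.16 in R 4.3.3 (TMM, prior count of 2 on the log scale). Genes passed filterByExpr, and each pair of groups was fitted alone by the quasi-likelihood test (prior count of 0.125, the default), with Benjamini-Hochberg adjustment. A gene was called where the adjusted P did not exceed 0.05 and the log2 fold change reached 1 in either direction. Alternatives used DESeq2 1.42.0 (all genes with a count), limma 3.58.1 (voom with quality weights), other scalings and filters, Xist as a covariate, a replicate block and each library left out. The prior count of the fits and the genes given to DESeq2 were set after first results had been seen. The earlier settings, a prior count of 2 and only the filtered genes in DESeq2, were kept as added alternatives. Tests were two-sided. The fit was tested on simulated data. Exon lengths and coordinates are from GENCODE on GRCm39.

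Members and gene lists were chosen with earlier results of these data known. All members are named, with list genes called (at most 5 per comparison by smallest P), or else the 3 with the smallest P, and any other gene was chosen after its values were seen or, for overlaps, from the annotation. Rgs5 and Cd34 go beyond the 5, so that every list gene called there is shown. Libraries of a group differed by more than sampling noise (chi-square per gene of 12.5 to 344). The labels do not say what the replicate numbers mark. In APB5+Mino against APB5, deviations of same-numbered libraries correlated by 0.134 to 0.182, and on that ground alone the numbers were taken to pair them. In APB5 against IgG, libraries of different number correlated as much (0.206 for APB5 replicate 2 with IgG replicate 1). Such values therefore do not establish a pairing. The main fit left this pairing out, and the fit with the replicate block took it in. Replicate 3 was the only library high in Xist in both of these groups, so pairing and sex cannot be told apart here. No other comparison had all 3 such correlations above 0.1.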

Additional observations from a re-analysis of the deposited data

How the results depend on the processing

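Direction and side of the threshold held for most single-gene values under the alternatives, 760 of 816. Of the others, 29 gained a call, 6 lost it and 21 changed sign. Among the 40 main values only that of Vwf in APB5+Mino against APB5 was called, so most had no call to lose. The alternatives refit the same 12 libraries and are not independent. Members called in APB5 against IgG went from 0 to 2 with DESeq2, 1 with voom and 3 with Xist as a covariate in all 12 libraries, and stayed at 0 in all 12 without it. In APB5+Mino against APB5 they went from 1 to 0 with library size only or the replicate block, 2 with voom, no count filter or only libraries low in Xist, and 3 with DESeq2, all 12 libraries with or without Xist as a covariate, and ran from 0 to 3 with each library left out. In IgG+Mino against IgG DESeq2 called 1, and in the interaction DESeq2 and voom called 1 each and Xist as a covariate (12 libraries) 2. DESeq2 on the filtered genes, added later, called 2, 3, 1 and 1 in these comparisons, and a prior count of 2 changed no count of members called. Over all genes, DESeq2 and voom also called more than edgeR in each of these comparisons, as given above. Divided by the endothelial sum, members without overlap went from 7 to 4 in APB5+Mino against APB5 and from 1 to 3 in IgG+Mino against IgG. The share of all genes was not computed for this ratio, so these counts have no background. Under voom the log2 fold change reversed to -0.13 (Selplg) and -0.04 (Ackr1) in APB5 against IgG, -0.59 (Icam1) and 0.02 (Icam2) in IgG+Mino against IgG, 0.59 (Icam1) and 0.05 (Ackr1) in APB5+Mino against IgG+Mino, and 0.08 (Ackr1) in the interaction, and with library size only to -0.01 (Vcam1) in IgG+Mino against IgG. Causes were not tested. With each library left out in turn, values that changed sign ran from -0.07 to 0.59 for Icam2, -0.59 to 0.55 for Selplg, -0.16 to 0.17 for Ackr1 in APB5 against IgG, from -0.05 to 0.01 for Pecam1 in APB5+Mino against APB5, from -0.65 to 0.67 for Icam1, -0.49 to 0.18 for Icam2, -0.07 to 0.25 for Vcam1 in IgG+Mino against IgG, from -0.72 to 0.6 for Icam1 and -0.44 to 0.12 for Ackr1 in APB5+Mino against IgG+Mino, from -0.86 to 0.27 for Selplg and -0.46 to 0.1 for Ackr1 in the interaction. The block changed no call of a member in the other comparisons. With 3 libraries a group, an exact permutation test cannot go below a P of 0.1. Sele and Selp did not pass the filter, and neither was called without it.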
